A study of Mus musculus with 9 samples.

Results

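The Fc receptor genes described here are 6 mouse genes chosen by name: Fcgr1, Fcgr3 and Fcgr4, which encode activating IgG receptors, Fcgr2b, which encodes the inhibitory IgG receptor, Fcer1g, which encodes the shared signalling chain, and Fcgrt, which encodes the neonatal Fc receptor. Each name matched a row of the count table of 56748 genes, and 6 of 6 passed the filter on low counts that left 18093 genes to test. They were followed through 9 polyA RNA libraries of wild type C57BL/6J mice aged 2 to 3 months, with 3 biological replicates in each of 3 groups. Reactive cultures were grown from the core of cortical lesions, made as a grid of lancet stabs, in culture medium containing 10% fetal bovine serum, and the whole culture went unsorted into RNA extraction. Injured cortex was the freshly dissociated core of such a lesion, and uninjured cortex was intact tissue. Cells of both cortex groups were sorted before RNA extraction, leaving out CD171+/ACSA-2- neurons together with dead cells and debris. The sources differ on the times: the sample labels give 1 day after injury for both lesion groups and 6 days in culture, whereas the series text gives 3 days for injured cortex, and 24 h followed by 8 days in vitro for the cultures. Between cultures and cortex, the culture itself, its serum, the time elapsed and the missing sort cannot be told apart. The number of animals behind a library is not given in the sources used here.

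Fc receptors bind the constant region of antibodies, and in the brain they are best known from microglia and from macrophages that enter or border the tissue. Activating receptors take up IgG immune complexes and signal through the chain encoded by Fcer1g, whose ITAM is phosphorylated by Src family kinases and then recruits the kinase Syk. The inhibitory receptor carries an ITIM, which recruits the lipid phosphatase encoded by Inpp5d and so dampens the same pathway. The neonatal receptor works inside endosomes together with B2m, where it returns IgG and albumin to the cell surface, in endothelial cells and macrophages among others.

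Total counts per library were 16667883 to 24302770 in cultures, 20389561 to 21135163 in injured cortex and 12205049 to 18577561 in uninjured cortex. Gene levels are given in CPM, a gene's counts relative to the total of its library, after TMM scaling, a method that sets libraries against each other by genes that change little. The TMM factors were 0.716 to 0.767 in cultures, 0.938 to 1.39 in injured cortex and 1.13 to 1.35 in uninjured cortex. Injured replicate 3 stood apart within its group, with the highest factor and the lowest share of counts in its 100 most abundant genes, 23.6% against 30.8% and 33.0% in injured replicates 1 and 2. For the Fc receptor genes, results that rest on injured cortex are therefore also given without it where a call changes. Calls of the other genes and gene lists named below are given only with this library included.

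Monocyte marker genes separated the injured libraries from the others. Summed over 8 genes such as Ccr2 and Ly6c2, they took 2587, 1034 and 534 CPM of the library total in injured replicates 1 to 3, 146 to 251 in cultures and 38.1 to 89.2 in uninjured cortex. In cultures Fn1, another gene of this list, supplied most of the sum. In injured against uninjured cortex, 8 of 8 monocyte markers, 6 of 6 natural killer cell markers, 5 of 10 neutrophil markers and 3 of 5 dendritic cell markers rose by edgeR's quasi-likelihood test at an adjusted p under 0.05. Of 8 microglial markers such as P2ry12 and Tmem119, 0 were called in that comparison by edgeR, DESeq2 or limma-voom, and 1 was lower at an unadjusted p under 0.05. The microglial sum was 1063 to 1565 CPM in cultures, 7330 to 14210 in injured cortex and 11801 to 16628 in uninjured cortex, and 8 of 8 microglial markers were lower in cultures than in either cortex group. Neuronal markers, summed over 6 genes, took 14.0 to 17.9 CPM in cultures, 41.6 to 95.1 in injured cortex and 17.0 to 30.4 in uninjured cortex, and 8 astrocyte markers took 73.1 to 129 CPM in cultures, 2199 to 5145 in injured cortex and 4447 to 7424 in uninjured cortex. Cultures also had 0 counts of Gzma, Prf1, Ncr1 and Xcr1 in every library and 0 to 2 counts of Ly6g. Other genes of the same lists were detected there. Culture replicates 1 to 3 had 100, 67 and 58 counts of Zbtb46 and 18, 42 and 10 of Ccr7, both dendritic cell markers. They had 8, 4 and 5 counts of the natural killer cell marker Klrb1c and 259, 332 and 417 of the neutrophil marker S100a8. In libraries of mixed cells, fewer cells of a type and less RNA per cell cannot be told apart.

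Between injured and uninjured cortex, Fcgr4 and Fcgr1 rose, which was 2 of the 6 genes, and 0 fell. By the same edgeR test 11.9% of all genes were called, 8.99% higher and 2.87% lower. DESeq2 called 3 of the 6 genes higher and 0 lower, limma-voom 2 and 0, and at an unadjusted p under 0.05 edgeR gave 4 higher and 0 lower, where 26.2% of all genes passed in either direction. The injured libraries lay wholly above the uninjured libraries for the same 2 genes. Among all genes 28.6% had groups that did not overlap, 16.1% higher and 12.5% lower. The median log2 fold change was 1.01 over the 6 genes and 0.0012 over all genes tested.

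Between cultures and injured cortex, Fcgr1 fell, 1 of the 6 genes, and 0 rose. This was a smaller share than among all genes, of which 50.1% were called, 20.0% higher and 30.1% lower. DESeq2 and limma-voom also gave 1 lower and 0 higher, and at an unadjusted p under 0.05 edgeR gave 2 lower and 0 higher, against 57.1% of all genes in either direction. The groups did not overlap for Fcgr1 alone, whereas they did not overlap for 59.7% of all genes, 25.8% higher and 33.8% lower. The median log2 fold change was -0.46 over the 6 genes and -0.19 over all genes.

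Between cultures and uninjured cortex, Fcgr4 rose, 1 of the 6 genes, and 0 fell, against 60.5% of all genes called, 27.5% higher and 33.1% lower. DESeq2 gave 1 higher and 1 lower, limma-voom 1 and 0, and an unadjusted p under 0.05 in edgeR 1 and 1, against 65.1% of all genes in either direction. Cultures lay wholly above uninjured cortex for Fcgr4 and Fcer1g and wholly below it for Fcgr1, 3 of the 6 genes. Among all genes 69.2% did not overlap, 32.1% higher and 37.1% lower. The median log2 fold change was 0.20 over the 6 genes and -0.17 over all genes. The 3 comparisons share libraries, so their values for a gene are not independent of each other.

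**Figure D1:**
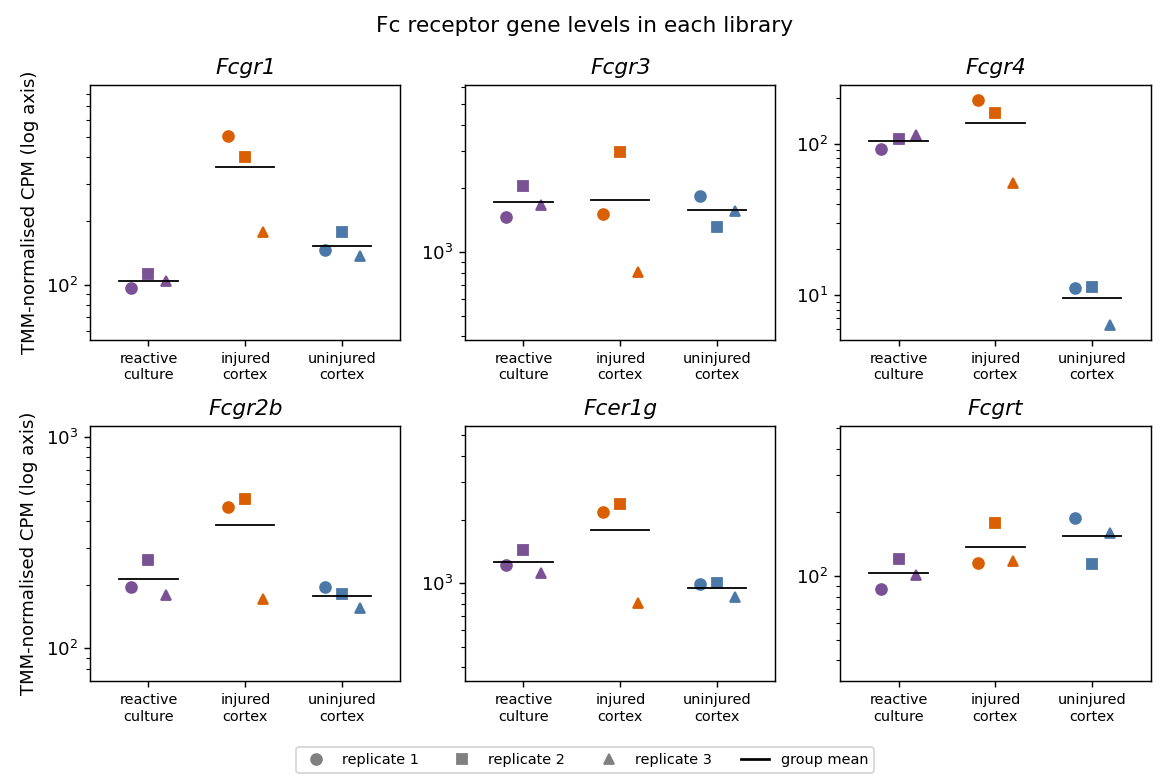
TMM-normalised CPM (log axis, with its own range in each panel) of the 6 Fc receptor genes in each library, with reactive cultures left, injured cortex in the middle and uninjured cortex right. Symbols mark replicates 1 to 3 and bars the mean of 3; Fcgr4 lies between 54.5 and 195 CPM in injured cortex and between 6.34 and 11.3 CPM in uninjured cortex, and injured replicate 3 is the lowest injured library in 5 of the 6 panels.

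Set per kilobase of annotated exon, Fcer1g and Fcgr3 were the most abundant of the 6 transcripts in each group. In cultures the order was Fcer1g at 1444 ± 187 CPM per kb, Fcgr3 at 995 ± 175, Fcgr4 at 83.1 ± 8.92, Fcgrt at 48.9 ± 8.08, Fcgr1 at 40.3 ± 3.13 and Fcgr2b at 36.6 ± 7.71 (SD, n = 3), and the ranges of Fcgrt, Fcgr1 and Fcgr2b overlapped from neighbour to neighbour. In injured cortex Fcer1g stood at 2041 ± 972 CPM per kb and Fcgr3 at 1013 ± 634, with overlapping ranges, followed by Fcgr1 at 139 ± 64.1, Fcgr4 at 108 ± 58.2, Fcgr2b at 66.1 ± 31.8 and Fcgrt at 65.1 ± 16.7, whose ranges also overlapped in turn. In uninjured cortex Fcer1g at 1091 ± 90.6 CPM per kb and Fcgr3 at 907 ± 155 overlapped, Fcgrt at 73.2 ± 18.0 and Fcgr1 at 59.1 ± 8.27 overlapped, and Fcgr2b at 30.6 ± 3.54 and Fcgr4 at 7.63 ± 2.23 each stood apart. Fcgr4 was thus the lowest of the 6 per length in uninjured cortex. Several places depend on the length used, most of all that of Fcgr2b, since its annotated exons span 5790 bases and its median coding transcript 1520. With coding transcript lengths it ranked 3 in cultures at 140 CPM per kb, 3 in injured cortex at 252 and 4 in uninjured cortex at 116. With those lengths Fcgr4 ranked 5 in cultures, where it ranked 3 by exon length, and 6 in injured cortex, where it ranked 4, and it stayed at 6 in uninjured cortex.

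Fcgr4 encodes an activating receptor of mouse monocytes, macrophages and neutrophils that binds IgG2 subclasses. It measured 92.2, 107 and 114 CPM in cultures, 195, 159 and 54.5 CPM in injured cortex and 11.1, 11.3 and 6.34 CPM in uninjured cortex. Every culture and every injured library lay above every uninjured library, and the culture values fell within the injured range. These levels rest on 1460 to 1853 counts in cultures, 1601 to 4137 in injured cortex and 104 to 251 in uninjured cortex. Injured cortex was 14.2-fold above uninjured cortex (log2 fold change 3.83 ± 0.43 SE, edgeR adjusted p = 1.59e-04). Cultures were 10.9-fold above uninjured cortex (3.44 ± 0.42, edgeR adjusted p = 2.54e-05). Fcgr4 had the largest change of the 6 genes in both of these comparisons, and ranked 329 by size among all 18093 genes for injury and 3030 for cultures. Cultures against injured cortex gave -0.38 ± 0.38 (edgeR adjusted p = 0.412).

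The rise of Fcgr4 after injury came with higher monocyte marker sums, and within injured cortex Fcgr4 and the monocyte sum had the same order of replicates. That order was not particular to monocyte markers. Dendritic cell markers summed to 396, 205 and 99.6 CPM of the library total in injured replicates 1 to 3, and natural killer cell markers to 112, 41.9 and 40.0. The neutrophil sum ran the other way, at 596, 639 and 703 CPM. The part of these markers in the Fcgr4 difference was not tested. In the cultures the monocyte and neutrophil markers were mixed. Ccr2 had 14 to 46 counts in each culture, Ly6c2 23 to 41, S100a9 0 to 5 and Ly6g 0 to 2, whereas Fn1 of the monocyte list had 3015 to 4985, Itga4 137 to 211, F10 116 to 120, and S100a8 and Csf3r of the neutrophil list 259 to 417 and 111 to 217. The monocyte sum of the cultures was above that of uninjured cortex, but Fn1 supplied most of it. In that comparison 3 of 8 monocyte markers were higher in cultures and 4 lower by edgeR, with a median log2 fold change of -1.63. The part of these markers in the culture level of Fcgr4 was not tested. Without injured replicate 3, Fcgr4 was also lower in cultures than in injured cortex (-0.76 ± 0.24, edgeR adjusted p = 0.0204; range 0.0204 to 0.947 over 18 alternatives).

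Fcgr1 encodes the high-affinity IgG receptor of monocytes, macrophages and microglia, and is a textbook interferon-gamma target. It measured 96.2, 112 and 104 CPM in cultures, 502, 400 and 178 CPM in injured cortex and 145, 177 and 137 CPM in uninjured cortex. Injured cortex was the highest group, and injured replicate 3 cleared uninjured replicate 2 by less than 1 CPM. Cultures lay below every cortex library. Cultures were lower than injured cortex (log2 fold change -1.79 ± 0.32 SE, edgeR adjusted p = 7.78e-04), and this was called under 18 of 18 alternatives. Injured cortex was 2.35-fold above uninjured cortex (1.23 ± 0.32, edgeR adjusted p = 0.0258). That call was lost under 8 of 18 alternatives: without culture replicate 2, injured replicate 1 or 2, or uninjured replicate 1, 2 or 3, without uninjured replicates 2 and 3 together, and with only the compared groups fitted (adjusted p 0.0513 to 0.278). Cultures against uninjured cortex gave -0.55 ± 0.32 (edgeR adjusted p = 0.147).

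The promoters of the 3 activating receptor genes are shown side by side. Whether their sequences bear on the levels of these genes was not tested. The 250 bases before the annotated RefSeq start were searched on both strands for GAGGAA, the core bound by the myeloid factor PU.1, for TTCNNNGAA, the interferon-gamma activated sequence, for GAAA followed by any 2 bases and GAAA again, a form of the interferon response element, and for TATAAA. Capitals mark the matches, and all are written 5′ to 3′ on the gene's own strand in GRCm38.p6. The windows are chr1:171018676-171018925 on the plus strand for Fcgr4, chr3:96293970-96294219 on the minus strand for Fcgr1 and chr1:171059404-171059653 on the minus strand for Fcgr3.
Fcgr4: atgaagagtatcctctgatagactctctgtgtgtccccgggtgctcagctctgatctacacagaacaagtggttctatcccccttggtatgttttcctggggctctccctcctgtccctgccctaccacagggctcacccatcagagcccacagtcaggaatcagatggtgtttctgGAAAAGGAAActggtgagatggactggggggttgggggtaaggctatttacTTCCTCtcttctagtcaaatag
Fcgr1: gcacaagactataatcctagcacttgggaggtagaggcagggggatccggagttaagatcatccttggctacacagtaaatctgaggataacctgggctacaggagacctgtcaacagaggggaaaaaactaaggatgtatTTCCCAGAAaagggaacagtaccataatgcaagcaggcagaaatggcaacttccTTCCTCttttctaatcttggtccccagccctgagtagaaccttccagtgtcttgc
Fcgr3: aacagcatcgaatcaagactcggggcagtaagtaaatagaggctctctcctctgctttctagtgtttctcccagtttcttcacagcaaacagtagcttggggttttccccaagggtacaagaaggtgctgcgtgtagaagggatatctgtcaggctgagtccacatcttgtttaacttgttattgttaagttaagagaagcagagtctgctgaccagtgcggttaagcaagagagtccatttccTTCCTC
Each of these windows held GAGGAA, read as TTCCTC on the gene's strand, with its first base 22 bases before the start in Fcgr4, 55 in Fcgr1 and 6 in Fcgr3. Fcgr3 has another annotated RefSeq start, not shown, and the same match lies 15 bases before that start. The window of Fcgr4 also held GAAAAGGAAA from 73 bases before the start, and that of Fcgr1 held TTCCCAGAA from 109 bases before it. None of the 4 motifs matched in the windows of Fcgr2b, Fcer1g or Fcgrt, and TATAAA matched in none of the 6 genes. Across 32851 RefSeq windows of the same length, 23.3% held GAGGAA, 7.02% TTCNNNGAA, 2.98% the paired GAAA and 12.4% TATAAA. A match describes the letters and not a site that was bound, and 6 of 6 genes had a window in the RefSeq table.

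Fcgr3 encodes the low-affinity activating IgG receptor of myeloid and natural killer cells. It measured 1460, 2057 and 1666 CPM in cultures, 1512, 2963 and 803 CPM in injured cortex and 1847, 1307 and 1571 CPM in uninjured cortex. Both the highest and the lowest of the 9 libraries were injured ones, and all 3 groups overlapped. The log2 fold change was -0.03 ± 0.41 for cultures against injured cortex (edgeR adjusted p = 0.962), 0.16 ± 0.41 for injured against uninjured cortex (adjusted p = 0.850) and 0.13 ± 0.41 for cultures against uninjured cortex (adjusted p = 0.793). Their signs were not stable: over the alternatives they ran from -0.37 to 0.58, -0.44 to 0.49 and -0.10 to 0.28. As CPM of the library total, without TMM, Fcgr3 averaged 1281 in cultures and 1920 in uninjured cortex. Fcgr3 shares 166 of its 1733 annotated 50-base stretches with Fcgr2b, 9.58% of its own and 2.92% of those of Fcgr2b, and how the counting treated reads from them is not given in the sources used here.

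Fcgr2b, the gene of the inhibitory receptor, measured 195, 263 and 179 CPM in cultures, 466, 510 and 172 CPM in injured cortex and 196, 180 and 155 CPM in uninjured cortex. Injured replicates 1 and 2 lay above every other library, and injured replicate 3 lay among the uninjured ones. The log2 fold change for injured against uninjured cortex was 1.11 ± 0.35 (edgeR adjusted p = 0.0596) and that for cultures against injured cortex was -0.85 ± 0.35 (edgeR adjusted p = 0.0591), so neither passed. Without injured replicate 3, Fcgr2b was called higher in injured than in uninjured cortex (1.45 ± 0.22, edgeR adjusted p = 4.65e-04; range 4.65e-04 to 0.500 over 18 alternatives). Without that library it was also called lower in cultures than in injured cortex (-1.20 ± 0.22, edgeR adjusted p = 6.89e-04; range 6.89e-04 to 0.198). Cultures against uninjured cortex gave 0.26 ± 0.35 (edgeR adjusted p = 0.526). The direction of that difference depended on the scaling. As CPM of the library total, without TMM, Fcgr2b measured 146, 188 and 137 in cultures and 221, 216 and 208 in uninjured cortex. Every culture then lay below every uninjured library. Exons of Fcgr2b overlap those of Gm38204, annotated on the opposite strand, and without a stated strand setting the reads of the pair cannot be told apart.

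Fcer1g, the gene of the signalling chain that the activating receptors need for their place at the cell surface, measured 1225, 1441 and 1121 CPM in cultures, 2176, 2365 and 809 CPM in injured cortex and 991, 1008 and 863 CPM in uninjured cortex. The cultures lay above the 3 uninjured libraries, while injured replicate 3 was the lowest of all 9. No comparison passed: 0 of 3 by edgeR, DESeq2 or limma-voom, and 1 of 3 at an unadjusted p under 0.05 in edgeR. The log2 fold change was -0.50 ± 0.37 for cultures against injured cortex (edgeR adjusted p = 0.271), 0.90 ± 0.37 for injured against uninjured cortex (adjusted p = 0.139) and 0.40 ± 0.36 for cultures against uninjured cortex (adjusted p = 0.351). Without injured replicate 3, Fcer1g was called in both comparisons that use injured cortex, at 1.23 ± 0.23 against uninjured cortex (edgeR adjusted p = 0.00202; range 0.00202 to 0.599 over 18 alternatives) and at -0.84 ± 0.23 for cultures (edgeR adjusted p = 0.00917; range 0.00917 to 0.622). As CPM of the library total, Fcer1g averaged 936 in cultures and 1161 in uninjured cortex, the opposite order to that after TMM.

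Fcgrt, the gene of the neonatal receptor, was the steadiest of the 6 among the injured libraries. It measured 86.7, 121 and 101 CPM in cultures, 115, 177 and 118 CPM in injured cortex and 188, 114 and 160 CPM in uninjured cortex. The groups overlapped in each comparison, and within injured cortex the highest library was 1.54 times the lowest, against 2.82 to 3.69 times for the other 5 genes. The log2 fold change was -0.41 ± 0.25 for cultures against injured cortex (edgeR adjusted p = 0.191), -0.17 ± 0.25 for injured against uninjured cortex (adjusted p = 0.726) and -0.58 ± 0.25 for cultures against uninjured cortex (adjusted p = 0.0646). The last of these passed under 6 of 18 alternatives. Of 8 endothelial markers such as Cldn5, 4 were lower and 0 higher in cultures than in uninjured cortex by edgeR. This was no larger a share than the 60.5% of all genes called there, and 2 of the 8 had a positive log2 fold change. The sum of the 8 was 69.8 to 99.4 CPM of the library total in cultures and 221 to 609 in uninjured cortex. The part of these markers in the Fcgrt values was not tested.

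**Figure D2:**
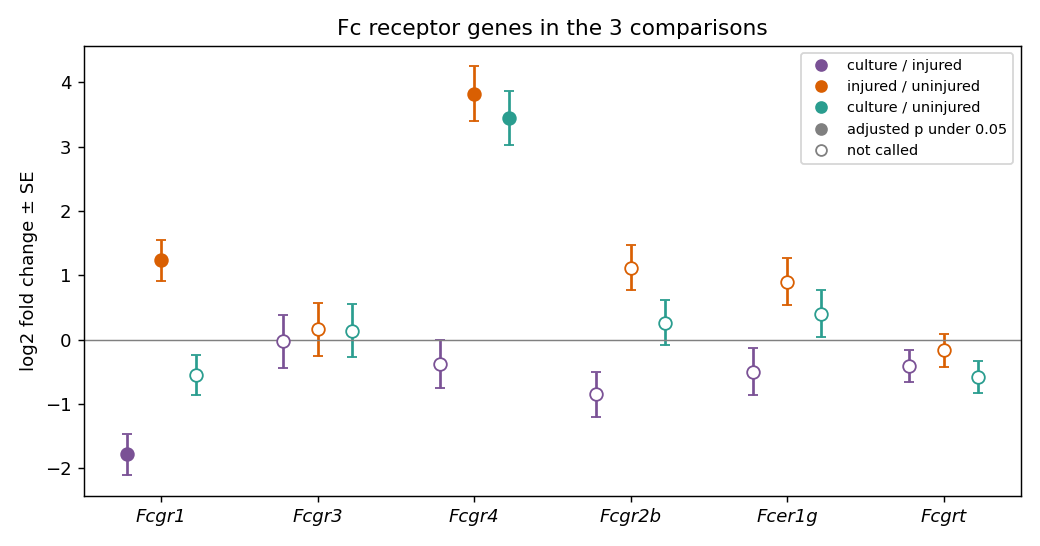
Log2 fold change ± SE (y axis) of each Fc receptor gene (x axis) for cultures against injured cortex, injured against uninjured cortex and cultures against uninjured cortex, with 3 libraries a group. Filled points passed edgeR's test at an adjusted p under 0.05: Fcgr1 at -1.79 and 1.23, and Fcgr4 at 3.83 and 3.44.

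The make-up of the 4 IgG receptor genes differed between the groups. As shares of their summed counts per kilobase, Fcgr4 made up 7.27% ± 0.94 in cultures, 8.41% ± 3.11 in injured cortex and 0.771% ± 0.267 in uninjured cortex (SD, n = 3). Fcgr1 made up 3.52% ± 0.30 in cultures, 11.3% ± 3.74 in injured cortex and 6.03% ± 1.68 in uninjured cortex. Fcgr3 remained the largest share with 86.0% ± 1.02 in cultures, 75.2% ± 7.72 in injured cortex and 90.1% ± 2.36 in uninjured cortex. Fcgr2b held 3.17% ± 0.36 in cultures, 5.12% ± 0.99 in injured cortex and 3.08% ± 0.48 in uninjured cortex, and with coding transcript lengths it held 8.89% in cultures, 14.1% in injured cortex and 8.57% in uninjured cortex. The lowest Fcgr4 share among culture and injured libraries, 6.09%, was above the highest in uninjured cortex, 1.04%. Shares of a whole are tied to each other, so a larger share of Fcgr1 and Fcgr4 makes that of Fcgr3 smaller.

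The balance of activating to inhibitory receptor transcripts was taken as the counts of Fcgr1, Fcgr3 and Fcgr4 over those of Fcgr2b, a ratio within each library that needs no scaling. It was 8.46, 8.66 and 10.5 in cultures, 4.74, 6.90 and 6.03 in injured cortex and 10.2, 8.29 and 11.1 in uninjured cortex. Injured cortex lay wholly below both other groups, which overlapped with each other. On the log2 scale, injured cortex differed from uninjured cortex by -0.75 ± 0.20 SE, a ratio of 0.594 (exact permutation test, two-sided p = 0.1, the smallest that 3 against 3 allows). Cultures differed from injured cortex by 0.66 ± 0.19, a ratio of 1.58 (exact permutation test, two-sided p = 0.1). Cultures differed from uninjured cortex by -0.09 ± 0.16 (exact permutation test, two-sided p = 0.7). Injured replicate 3, low for most of the 6 genes, lay between the other injured libraries in this ratio. Fcgr3 supplied most of the counts above the line, so the ratio chiefly sets Fcgr3 against Fcgr2b.

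**Figure D3:**
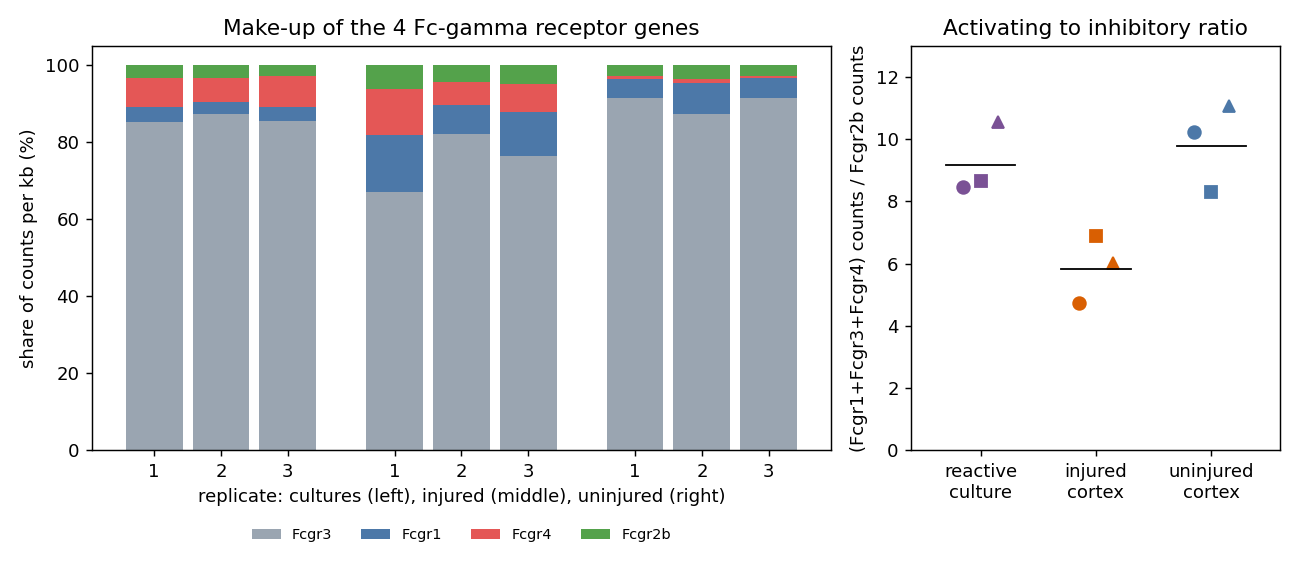
Left, share (%) of the counts per kb of the 4 IgG receptor genes in each library, with cultures left, injured cortex in the middle and uninjured cortex right. Right, counts of Fcgr1, Fcgr3 and Fcgr4 over those of Fcgr2b, with symbols for replicates 1 to 3 (circle, square, triangle) and bars at the geometric mean; injured cortex spans 4.74 to 6.90, below cultures and uninjured cortex.

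The 6 genes were also set against the summed counts of 8 genes that myeloid cells share: Ptprc, Csf1r, Aif1, Cd68, Itgam, Laptm5, Spi1 and Cd53. On the log2 scale, Fcgr4 per myeloid count differed by 3.22 ± 0.32 SE between injured and uninjured cortex and by 2.75 ± 0.19 between cultures and uninjured cortex, with no overlap in either (exact permutation test, two-sided p = 0.1 each, the smallest possible). Fcgr4 per myeloid count was thus 9.29-fold and 6.71-fold that of uninjured cortex. With Ptprc or Csf1r alone below the line, the same differences were 2.27 and 3.64 for injured cortex and 2.90 and 5.36 for cultures. Fcgr1 per myeloid count differed by -1.94 ± 0.24 between cultures and injured cortex and by 0.65 ± 0.28 between injured and uninjured cortex (exact permutation test, two-sided p = 0.1 each), and both signs turned with another gene below the line, to 0.25 with Csf1r and to -0.30 with Ptprc. Cd68 counts were 57142 to 97420 in cultures, 16455 to 43420 in injured cortex and 10486 to 17393 in uninjured cortex, and Csf1r counts were 4004 to 8309 in cultures, 28162 to 37297 in injured cortex and 18701 to 32375 in uninjured cortex. The myeloid genes thus differed from each other in their order of groups, and the values of the other 4 receptor genes also moved with the gene below the line; the remaining genes of the sum were not used alone.

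The 6 genes did not share a pattern over the 9 libraries. As the root mean square difference of centred log2 CPM, the closest pair was Fcgr2b and Fcer1g at 0.16, whereas Fcgr4 lay 1.43 to 1.94 from each of the others. Among the 9096 genes that averaged 10 CPM or more, the nearest to Fcgr4 were AB124611 at 0.19, Gpr65 at 0.30 and Oas1a at 0.39. Those nearest to Fcgr1 included Coro1a at 0.14 and Nmi at 0.16, and those nearest to Fcgr2b were Klhl6 at 0.17, H2-M3 at 0.19 and Tlr1 at 0.20. The nearest to Fcer1g were Acer3 at 0.16, Cdk2ap2 at 0.19 and Nfe2l2 at 0.21. For Fcgr3 they were Spcs2 at 0.15, Oser1 at 0.21 and Tor2a at 0.22, and for Fcgrt Smarcd3, Mtarc2 and Frg1 at 0.14 to 0.15. These distances share libraries and group differences, and are a description of 9 samples.

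Transcripts of immunoglobulin heavy and light chains and of Jchain, which B lineage cells make, were also followed. Of 12 listed genes 8 were tested. Only Ighg2b among the tested genes encodes an IgG heavy chain, so the list does not measure the IgG that these receptors bind. Ighg2b had 0 to 2 counts in cultures, 13 to 313 in injured cortex and 6 to 14 in uninjured cortex. Counts of called genes in this and the other lists stand against the share of all genes called, which was 50.1% for cultures against injured cortex, 11.9% for injured against uninjured cortex and 60.5% for cultures against uninjured cortex. In cultures 8 of 8 were lower than in injured cortex and 7 of 8 lower than in uninjured cortex, with 0 higher in either by edgeR, DESeq2, limma-voom or at an unadjusted p under 0.05. Ighm, the IgM heavy chain, averaged 1.63 CPM in cultures, 331 in injured cortex and 252 in uninjured cortex. Igkc, the kappa light chain, had 0, 1 and 0 counts in cultures, 1573 to 2461 in injured cortex and 329 to 799 in uninjured cortex. Ighd, Iglc1 and Jchain had 0 counts in every culture. With such genes set at a floor of 3 counts over the group, the list's median log2 fold change was -7.52 for cultures against injured cortex and -6.67 against uninjured cortex, beside -0.19 and -0.17 over all genes. In injured against uninjured cortex 1 of 8 rose and 0 fell by edgeR, DESeq2 gave 2 and 0, limma-voom 3 and 0 and an unadjusted p under 0.05 gave 4 and 0, with a list median of 1.11. The gene that rose was Igkc, at 3.33-fold (log2 fold change 1.74 ± 0.33, edgeR adjusted p = 0.00491). Ighg2c, an IgG heavy chain, was not tested: injured replicate 2 held 638 of its counts and the other libraries 0 to 16. B cell markers moved with these transcripts, with a sum of 0.600 to 2.39 CPM of the library total in cultures, 52.6 to 77.8 in injured cortex and 41.4 to 56.9 in uninjured cortex, and their part was not tested.

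Of 14 other Fc and Fc-like receptor genes 7 were tested, and the other 7, among them Fcer1a and Pigr, had at most 10 counts in any library. Cultures were lower than injured cortex for 5 of 7 and higher for 0, a count of 0 higher that DESeq2, limma-voom and an unadjusted p under 0.05 also gave. Against uninjured cortex cultures were lower for 5 and higher for 1 by edgeR, DESeq2 and an unadjusted p under 0.05. By limma-voom they were lower for 4 and higher for 0. The medians were -4.00 and -2.20. Fcrls, an Fc receptor-like gene typical of mouse microglia, averaged 40.8 ± 13.6 CPM in cultures, 1802 ± 1103 in injured cortex and 1243 ± 339 in uninjured cortex (SD, n = 3), and its log2 fold change was -5.46 ± 0.51 for cultures against injured cortex (edgeR adjusted p = 4.94e-06) and -4.93 ± 0.50 against uninjured cortex (5.28e-06). Microglial markers fell in the same comparisons. Fcer2a, the low-affinity IgE receptor of B cells, had 0 counts in every culture, 26 to 38 in injured cortex and 9 to 38 in uninjured cortex, and Fcmr, the IgM receptor, had 2, 0 and 0 counts in cultures and 72 to 122 in injured cortex. In injured against uninjured cortex 2 of 7 rose and 0 fell by edgeR, DESeq2 and limma-voom, with 3 and 1 at an unadjusted p under 0.05 and a median of 0.54. They were Fcrla at 2.29 ± 0.48 (edgeR adjusted p = 0.00907) and Fcrlb at 2.08 ± 0.51 (0.0201), both Fc receptor-like proteins that stay inside the cell. Fcrlb was also the 1 gene higher in cultures than in uninjured cortex (1.36 ± 0.52, edgeR adjusted p = 0.0381), at 1.49 CPM in cultures and 0.570 in uninjured cortex. These levels rest on 15 to 30 counts in cultures and 8 to 16 in uninjured cortex, and limma-voom did not call it.

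Receptors that couple to Fcer1g, and signalling adaptors of other activating receptors, mostly rose after injury. Of 8 tested genes 7 were higher in injured than in uninjured cortex and 0 lower by edgeR. DESeq2 gave 7 and 0, limma-voom 6 and 0, and an unadjusted p under 0.05 gave 8 and 0. The median log2 fold change of the 8 genes was 3.06. Clec4d, Clec4n and Clec4e encode C-type lectin receptors of myeloid cells that couple to Fcer1g. Clec4d had 5600 to 7132 counts in cultures, 373 to 917 in injured cortex and 8 to 14 in uninjured cortex. Its log2 fold change was 3.73 ± 0.39 for cultures against injured cortex, 5.58 ± 0.47 for injured against uninjured cortex and 9.31 ± 0.52 for cultures against uninjured cortex (edgeR adjusted p = 1.15e-05, 2.47e-05 and 5.58e-08). Clec4n followed the same order with 937 ± 431 CPM in cultures, 48.8 ± 20.4 in injured cortex and 4.92 ± 1.60 in uninjured cortex, and each step passed the test. Clec4e had 186 to 1085 counts in cultures, 615 to 3159 in injured cortex and 14 to 29 in uninjured cortex. Pira2, an activating paired receptor that couples to Fcer1g, had 309 to 376 counts in cultures, 15 to 69 in injured cortex and 0, 3 and 0 in uninjured cortex.

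Within the same list, Ncr1, Cd247 and Hcst were lower in cultures than in injured cortex. Ncr1, a receptor of natural killer cells, had 0 counts in every culture, 47 to 156 in injured cortex and 6 to 16 in uninjured cortex, and Cd247, the T and natural killer cell signalling chain, averaged 0.686 CPM in cultures and 6.34 in injured cortex (log2 fold change -3.18 ± 0.69, edgeR adjusted p = 0.0026). Hcst, an adaptor of activating natural killer and myeloid receptors, was also lower in cultures than in injured cortex (-0.86 ± 0.27, edgeR adjusted p = 0.0185). The list thus split into 3 higher and 3 lower of 8 for cultures against injured cortex, with a median of -0.14. Cultures against uninjured cortex gave 5 higher and 1 lower, with a median of 3.14.

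The kinases and adaptors below the activating receptors rose in part after injury. Of 21 tested genes 6 were higher in injured than in uninjured cortex and 0 lower by edgeR, 7 and 0 by DESeq2, 6 and 0 by limma-voom, and 16 and 0 at an unadjusted p under 0.05, with a median log2 fold change of 0.72. Fgr, a Src family kinase of myeloid cells, measured 42.8 ± 24.5 CPM in injured cortex and 2.00 ± 0.39 in uninjured cortex (SD, n = 3; 4.42 ± 0.46, edgeR adjusted p = 1.12e-04). Rac2, the haematopoietic Rac GTPase, rose by 1.92 ± 0.35 (edgeR adjusted p = 0.0039), Syk by 0.97 ± 0.22 (0.0142) and the adaptor Grb2 by 0.95 ± 0.20 (0.00863).

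In cultures 2 of the 21 signalling genes were higher and 7 lower than in injured cortex, with a median of -0.39, a share no larger than the 50.1% of all genes called there. Against uninjured cortex 8 were higher and 2 lower, with a median of 0.32, again no larger a share than the 60.5% of all genes. The Src family kinases Lyn and Fgr were lower in cultures than in injured cortex by edgeR, at -1.41 ± 0.32 and -1.72 ± 0.40 (adjusted p = 0.00338 and 0.00414), as was Card9, the adaptor below Syk (-1.75 ± 0.31, 6.59e-04). Nckap1l, an actin regulator of blood cells, and Lat2, a membrane adaptor, were higher in cultures than in injured cortex, at 0.92 ± 0.23 and 0.99 ± 0.36 (edgeR adjusted p = 0.00558 and 0.0349). Fgr, Rac2, Syk and Lat2 were higher in cultures than in uninjured cortex, by 1.34 to 2.70 on the log2 scale, and Card9 and Pik3cg were lower, at -1.03 and -0.90.

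The phagocyte NADPH oxidase, which makes superoxide after Fc receptor ligation, had 3 of 5 genes higher and 0 lower in injured than in uninjured cortex by edgeR, DESeq2 and limma-voom, and 5 and 0 at an unadjusted p under 0.05, with a median of 0.92. Cybb, its catalytic subunit, measured 487 ± 34.6 CPM in cultures, 133 ± 76.9 in injured cortex and 8.93 ± 2.31 in uninjured cortex (SD, n = 3). It was higher in cultures than in injured cortex (1.88 ± 0.39, edgeR adjusted p = 0.00177) and higher in injured than in uninjured cortex (3.89 ± 0.42, adjusted p = 1.45e-04). The difference of cultures from uninjured cortex was 5.77 ± 0.46 (adjusted p = 8.54e-07). The cytosolic subunits Ncf4 and Ncf1 rose in injured cortex by 1.49 ± 0.37 and 0.84 ± 0.22 (edgeR adjusted p = 0.0217 and 0.0263). Cyba, the partner of Cybb, was higher in cultures than in injured cortex (1.33 ± 0.37, edgeR adjusted p = 0.0115), whereas Ncf1 was lower (-1.10 ± 0.22, adjusted p = 0.00141), so that 2 genes were higher and 1 lower. Cultures exceeded uninjured cortex for 4 of 5 genes and were below it for 0, by edgeR, DESeq2, limma-voom and an unadjusted p under 0.05 alike.

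The inhibitory side of the pathway, 14 tested genes beside Fcgr2b, gave 3 higher and 0 lower in injured than in uninjured cortex by edgeR, DESeq2 and limma-voom, and 5 and 0 at an unadjusted p under 0.05, with a median of 0.24. Those that rose were the adaptors Dok2 at 3.26 ± 0.44 (edgeR adjusted p = 5.66e-04) and Dok3 at 1.16 ± 0.25 (0.0113), and Pirb, the inhibitory paired receptor, at 2.84 ± 0.39 (6.70e-04). For cultures against injured cortex 5 genes were higher and 5 lower, with a median of -0.17, and for cultures against uninjured cortex 5 were higher and 2 lower, with a median of 0.32. Among all genes 50.1% were called for cultures against injured cortex and 60.5% for cultures against uninjured cortex, the second a larger share than 7 of 14. Inpp5d, the phosphatase that the ITIM of the inhibitory receptor recruits, was lower in cultures, at 59.1 ± 21.4 CPM in cultures, 146 ± 19.8 in injured cortex and 121 ± 3.95 in uninjured cortex (-1.30 ± 0.25 against injured cortex, edgeR adjusted p = 0.00109, and -1.03 ± 0.25 against uninjured cortex, 0.00342). Cd33, another gene of this list, was lower in cultures in both comparisons as well, at -1.72 and -1.53. The phosphatase Ptpn6 and the kinase Csk were lower in cultures than in injured cortex, at -0.997 and -0.89. Dok2 and Cd300a were higher in cultures than in injured cortex, at 2.17 and 0.93, and Dok2, Pirb and the ubiquitin ligase Cblb were higher than in uninjured cortex, at 5.42, 3.49 and 1.78.

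Genes that work with the neonatal receptor, B2m and regulators of recycling endosomes, were called in 1 of 6 cases after injury and more often in cultures. Of 6 tested, 1 was higher and 0 lower in injured than in uninjured cortex by edgeR and limma-voom, 2 and 0 by DESeq2, and 2 and 1 at an unadjusted p under 0.05, with a median of 0.49. Ehd1, an endosomal recycling ATPase, rose by 1.92 ± 0.30 (edgeR adjusted p = 0.00156). In cultures Rab11a, a recycling GTPase, was higher than in injured cortex (0.67 ± 0.24, edgeR adjusted p = 0.0359) and its partner Rab11fip2 lower (-1.62 ± 0.39, adjusted p = 0.00477), 1 gene each way, with a median of -0.35. Against uninjured cortex Ehd1 and Rab11a were higher, at 1.93 and 1.11, and Rab11fip2 and Rab4a lower, at -1.96 and -0.87, with a median of 0.34. These 4 of 6 calls stand beside 60.5% of all genes called in that comparison, and the 2 of 6 against injured cortex beside 50.1%.

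Interferon-gamma receptor and myeloid transcription factor genes had 4 of 9 higher and 0 lower in injured than in uninjured cortex by edgeR and limma-voom, 5 and 0 by DESeq2, and 6 and 0 at an unadjusted p under 0.05, with a median of 0.82. Among them Cebpb rose by 1.79 ± 0.41 (edgeR adjusted p = 0.0147), Ifngr2 by 1.03 ± 0.25 (0.0187) and Irf8 by 0.72 ± 0.21 (0.0435). In cultures 5 were lower and 1 higher than in injured cortex, with a median of -0.76. Irf1, a factor induced by interferon, measured 21.5 ± 1.60 CPM in cultures, 128 ± 53.8 in injured cortex and 59.6 ± 21.8 in uninjured cortex (SD, n = 3; -2.57 ± 0.36 against injured cortex, edgeR adjusted p = 1.17e-04). Ifngr1, the ligand-binding receptor chain, was lower in cultures than in injured cortex, at -1.84 ± 0.31 (edgeR adjusted p = 4.98e-04), and Ifngr2, the other chain, was higher at 0.65 ± 0.25 (0.0452). Against uninjured cortex 3 were higher and 2 lower in cultures, with a median of -0.05.

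**Figure D4:**
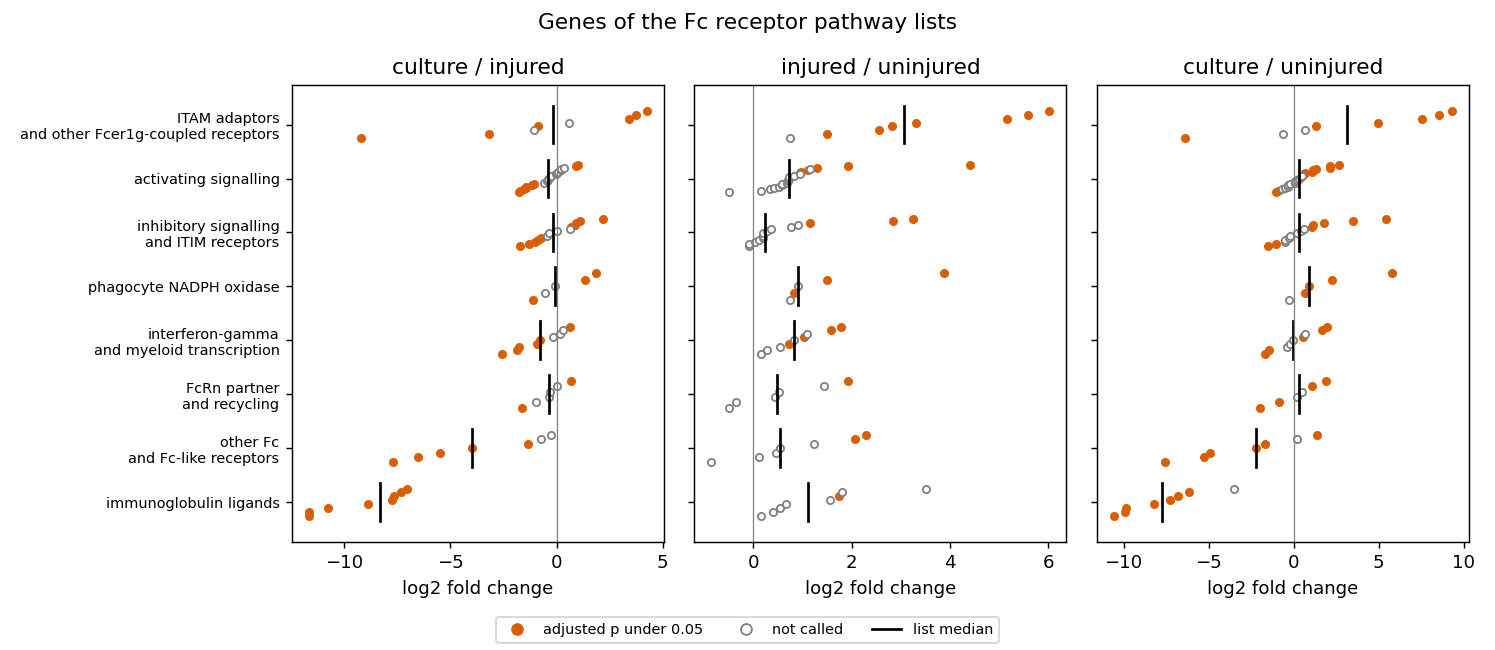
Log2 fold change (x axis, with its own range in each panel) of each tested gene of 8 lists around the Fc receptor genes, for cultures against injured cortex, injured against uninjured cortex and cultures against uninjured cortex. Filled points passed edgeR's test at an adjusted p under 0.05 and bars mark list medians; in injured against uninjured cortex every called point lies right of 0, and 8 of 8 immunoglobulin genes lie far left for cultures against injured cortex, where fitted values of genes at 0 counts are not bounds.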

How the data were processed

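The authors deposited raw counts per gene, from reads aligned with HISAT2 to GRCm39 per the submitters' processing notes. Versions, the counting tool, its strand setting and the annotation were not given in the sources used here. The members, gene lists and tests were chosen with earlier results of these data known. Counts were fitted in R 4.3.3 with edgeR 4.0.16: filterByExpr at its defaults, TMM scaling, a quasi-likelihood fit of 3 group means with 6 residual degrees of freedom, and Benjamini-Hochberg adjustment over 18093 genes, with calls at an adjusted p under 0.05. SDs are over 3 libraries a group, and SEs of fold changes come from the fit. Sums over marker lists are CPM of the library total. Ratios were compared by exact permutation over libraries. Depth was 12205049 to 24302770 counts per library. Lengths came from GENCODE exons and promoter sequences from RefSeq, both on GRCm38, so no coordinate was carried to the counts. Genes named from the lists were up to 4 called members with the smallest adjusted p per list and comparison, and called members against the majority; some results under these rules are not reported here. Neighbour distances came from log2 CPM after adding a prior count of 2. Cd68, Csf1r, Ighg2b, Ighg2c, Iglc1, Jchain and the marker genes quoted were named after their values were seen. Alternatives were other scaling factors, DESeq2 1.42.0, limma-voom (limma 3.58.1), other filters, fits of the compared groups alone, a block for replicate number, and libraries left out. The pipeline was tested on simulated data.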

Additional observations from a re-analysis of the deposited data

How the results depend on the processing

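Fcgr4 remained called in both comparisons with uninjured cortex under 18 of 18 alternatives, at log2 fold changes of 3.46 to 4.18 (injured) and 3.203 to 3.57 (cultures), as did Fcgr1 for cultures against injured cortex (-2.11 to -1.48). For injured against uninjured cortex, 2 members were called in the main analysis; 1 was called, without Fcgr1, when these groups were fitted alone (Fcgr1 1.22, adjusted p = 0.0911; range 1.28e-04 to 0.278) and without uninjured replicates 2 and 3 (1.30), where the lone library is assumed to vary like the other groups. Fcgr2b was called there with DESeq2 (1.05) and no filter (1.14), and 2 members were called for cultures against injured cortex with upper-quartile factors and no filter (Fcgr2b -0.90 and -0.86). For cultures against uninjured cortex, 2 members were called with upper-quartile factors, DESeq2 and 1 CPM in 3 libraries (Fcgrt -0.77, -0.61 and -0.64) and 3 when fitted alone (Fcgr1 -0.64, Fcgrt -0.67). Among all genes, 2145 were called between injured and uninjured cortex, 1369 when fitted alone, 462 without uninjured replicates 2 and 3, and 3163 with DESeq2; cultures against uninjured cortex gave 10954, and 6997 without those 2 libraries. Upper-quartile factors gave 1352 higher and 761 lower for injured against uninjured cortex, against 1626 and 519, shifted the median gene by -0.12, and put it at -0.37 rather than -0.17 for cultures against uninjured cortex.

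Same-numbered libraries showed no regular pairing: of 9 pairs 3 had a correlation of deviations over 0.1 (-0.088 to 0.353), and 3 of 9 libraries were nearest their own number. The largest value, 0.353, was that of injured and uninjured replicate 3. With 3 libraries a group, these correlations cannot exclude pairing. With the replicate block, Fcgr2b was called for cultures against injured cortex (-0.76, so 2 members) and for injured against uninjured cortex (1.00, so 3 members); it changed no other member's call.

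Leaving out each library in turn gave 1 to 4 members called for cultures against injured cortex, where Fcgr2b ranged from -1.20 to -0.58, Fcgr4 from -0.76 to -0.043 and Fcer1g from -0.84 to -0.24. It gave 1 to 4 for injured against uninjured cortex, where Fcgr1 ranged from 0.90 to 1.54, Fcgr2b from 0.86 to 1.45 and Fcer1g from 0.65 to 1.23. It gave 1 to 3 for cultures against uninjured cortex, where Fcgr1 ranged from -0.64 to -0.45 and Fcgrt from -0.77 to -0.39. Among all genes the calls between injured and uninjured cortex ranged from 974 without injured replicate 1 to 4102 without injured replicate 3, with 1123 and 1284 without uninjured replicates 2 and 3 in turn. The counts of 4, and that of 3, were those without injured replicate 3.

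Differences per myeloid count turned with the gene below the line, whose own levels differ between the groups as given above. With Ptprc alone, Fcgr1, Fcgr2b, Fcgr3, Fcgr4, Fcer1g and Fcgrt stood at -0.83, 0.11, 0.99, 0.63, 0.47 and 0.43 for cultures against injured cortex, in that order. For injured against uninjured cortex they stood at -0.30, -0.45, -1.44, 2.27, -0.66 and -1.58. With Csf1r alone they stood at 0.25, 1.20, 2.08, 1.72, 1.56 and 1.52 for cultures against injured cortex, at 1.32, 2.12, 2.00, 5.36, 2.27 and 1.30 for cultures against uninjured cortex, and Fcgr1, Fcgr2b, Fcgr3 and Fcer1g at 1.07, 0.92, -0.075 and 0.71 for injured against uninjured cortex. Of all values recomputed, 612 were graded unchanged, 66 moved, 19 newly passed, 8 no longer passed and 15 reversed. The unchanged grade meant the same call or a small move. It took in fold changes that turned sign while called in neither fit, as for Fcgr3. Ratios counted as reversed only where the main difference was larger than the spread between replicates, so some of those that moved also turned sign. Depth limits Fcgr4 in uninjured cortex most, with 104 to 251 counts a library.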
